A study of Mus musculus with 24 samples.

Results

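Quiescent muscle stem cells of the mouse were compared with muscle stem cells taken 60 h after muscle injury, by real-time PCR of microRNAs (miRNAs).
The arrays were chosen by title alone: ASC 60hr and QSC 0hr (ASC for activated, QSC for quiescent stem cells), with 3 replicates of each on card A and on card B, the 2 cards of the TaqMan rodent miRNA panel. That gave 12 of the 24 arrays of the series.
Both groups came from male C57BL/6 mice aged 8 weeks, and the labels name no mutation, no treatment other than the injury, no pooling of animals and no cell sort or surface marker. RNA was extracted with Trizol, and the PCR ran for 40 cycles in an ABI 7900HT machine.
The remaining 12 arrays hold cells taken 36 h and 72 h after injury, from mice of the same sex, strain and age. They share the estimate of the spread and are compared with 60 h at the end.
The design text calls the 3 replicates of a group technical, so the p-values cover the spread between these arrays and not the spread between mice.

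Muscle stem cells, also called satellite cells, lie quiescent between the muscle fibre and its basal lamina. Injury brings them into the cell cycle, and their progeny divide as myoblasts before they differentiate and fuse.
A miRNA is cut from a hairpin precursor as a short duplex. One strand is loaded into an Argonaute protein and pairs with mRNAs mainly through its seed, bases 2 to 8, so miRNAs with the same seed share many predicted targets. The asterisk in a name such as miR-31* marks the strand of the hairpin that was found less often when the name was given.

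Mature sequences were taken from RefSeq (mouse build GRCm38.p6). They were found for 285 of the 517 mouse assays, and for 204 of the 278 mouse assays that were tested between 0 h and 60 h or detected in 1 of these groups alone. Each is written 5′ to 3′ with the seed in capitals, followed by its position.
The first 5 are among the 10 largest increases and the 10 largest decreases: 3 that were much higher at 60 h and 2 that were much lower, from hairpins within the spans of Calcr and Rtl1.
miR-31-5p: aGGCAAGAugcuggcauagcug (chr4:88910614-88910635, minus strand)
miR-182-5p: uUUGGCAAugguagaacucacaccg (chr6:30165962-30165986, minus strand)
miR-21a-5p: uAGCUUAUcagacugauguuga (chr11:86584120-86584141, minus strand)
miR-489-3p: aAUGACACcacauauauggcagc (chr6:3721922-3721944, minus strand)
miR-127-3p: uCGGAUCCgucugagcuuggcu (chr12:109592888-109592909, plus strand)

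The next 6 share the seed AAAGUGC and rose together. They lie in 3 separate clusters on chromosomes 14, X and 5, the last within the span of Mcm7.
miR-17-5p: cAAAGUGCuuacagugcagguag (chr14:115043684-115043706, plus strand)
miR-20a-5p: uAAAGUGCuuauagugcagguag (chr14:115044183-115044205, plus strand)
miR-106a-5p: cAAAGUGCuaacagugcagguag (chrX:52742541-52742563, minus strand)
miR-20b-5p: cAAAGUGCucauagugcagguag (chrX:52742159-52742181, minus strand)
miR-93-5p: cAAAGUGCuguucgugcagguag (chr5:138165574-138165596, minus strand)
miR-106b-5p: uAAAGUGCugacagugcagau (chr5:138165787-138165807, minus strand)

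The following 5 share the seed AGCAGCA and moved in different directions. miR-322 lies on the X chromosome, miR-15b and 1 copy of miR-16 within the span of Smc4, and miR-497 and miR-195 side by side on chromosome 11.
miR-322-5p: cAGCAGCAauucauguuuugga (chrX:53054306-53054327, minus strand)
miR-15b-5p: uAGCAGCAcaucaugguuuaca (chr3:69009775-69009796, plus strand)
miR-16-5p: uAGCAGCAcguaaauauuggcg (chr14:61631936-61631957, minus strand and chr3:69009918-69009939, plus strand)
miR-497a-5p: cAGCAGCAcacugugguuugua (chr11:70234730-70234751, plus strand)
miR-195a-5p: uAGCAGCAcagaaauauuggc (chr11:70235062-70235082, plus strand)

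The last 8 are 4 pairs with the same seed whose 2 members differed in their response: miR-27a and miR-27b, miR-99b and miR-99a, miR-221 and miR-222, and let-7i and let-7b.
miR-27a-3p: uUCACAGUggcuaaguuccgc (chr8:84208727-84208747, plus strand)
miR-27b-3p: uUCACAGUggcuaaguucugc (chr13:63300760-63300780, plus strand)
miR-99b-5p: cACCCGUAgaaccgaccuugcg (chr17:17830194-17830215, plus strand)
miR-99a-5p: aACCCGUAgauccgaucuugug (chr16:77598940-77598961, plus strand)
miR-221-3p: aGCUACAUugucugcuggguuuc (chrX:19146307-19146329, minus strand)
miR-222-3p: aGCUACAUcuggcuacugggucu (chrX:19146901-19146923, minus strand)
let-7i-5p: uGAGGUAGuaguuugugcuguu (chr10:122985698-122985719, minus strand)
let-7b-5p: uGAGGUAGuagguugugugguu (chr15:85707325-85707346, plus strand)

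A level here is the mean threshold cycle (Ct) of U6 RNA on an array minus the Ct of the assay. It is a log2 scale on which a higher value is more RNA and 1 unit is 2-fold. Each card was set against its own U6. U6 itself had a mean Ct of 15.37 at 0 h and 15.39 at 60 h on card A, and of 15.56 and 15.48 on card B.
Levels of different assays are not compared with each other, because assays can differ in efficiency. Detection on an array required every spot of the assay to cross the threshold before cycle 35.
Between 181 and 190 of 375 assays were detected per array on card A, and between 95 and 102 of 209 on card B. The median spread of a level over the 3 arrays of a group was small (SD 0.14 at 0 h and 0.10 at 60 h), and the number of arrays limits the precision.
In RNA from a population of cells, fewer cells of a type and less RNA per cell cannot be told apart.
The panel measures no mRNA, so the labelled cell type could be checked only against miRNAs: miR-206, which is nearly restricted to skeletal muscle and its precursor cells, was detected on 6 of 6 arrays of its card. So were miR-126-3p, miR-145, miR-150 and miR-223, which mark other cell types, and 4 assays of the muscle list below were undetected on all 6. Detection therefore does not show that the cells were of a single type.

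Of the 584 assays, 250 were detected in at least 2 replicates of both groups and were tested with limma. A call needed a Benjamini-Hochberg adjusted p below 0.05 together with a 2-fold or larger change.
Of the 250 assays, 161 were called, which is 64.4% and the background for the counts below. 70 assays were higher at 60 h (28.0%) and 91 were lower (36.4%).
28 others gave a signal at 60 h alone and 23 at 0 h alone, 245 were undetected on all 6 arrays, and 38 were detected too unevenly to test.
Among 230 assays detected on all 6 arrays, 201 had 60 h levels that did not overlap the 0 h levels (87.4%).
Card A had 48 higher and 71 lower assays among 168 tested, and card B had 22 higher and 20 lower among 82. Over the 250 assays the median change was -0.37 on the log2 scale.

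The split between higher and lower assays depended on the reference RNA. snoRNA202, another control RNA on the cards, fell by 2.40 against U6 on card A and by 2.55 on card B, while snoRNA135 fell by 0.34 and 0.40 and Y1 rose by 0.11 and 0.26.
With snoRNA202 as reference in place of U6, 179 assays were higher and 20 lower, and the median change was 2.08. With snoRNA135 the counts were 82 and 76, with Y1 66 and 100, with the mean of all assays detected on 12 arrays 74 and 86, and with U87 111 and 51.
A decrease of less than about 2.4 therefore took a positive sign with snoRNA202, and such cases are given beside each group. A change of reference shifts all assays of a card by the same amount, so that differences in response between assays of 1 card did not depend on it.

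The largest increase among assays detected on all 6 arrays was that of miR-31, a known repressor of Myf5 translation in quiescent cells. Its levels were -14.89, -15.13 and -15.31 at 0 h and -5.15, -5.19 and -5.20 at 60 h. The arrays of the 2 groups lay far apart, with a change of 9.94 ± 0.09 (979-fold, adjusted p = 2.54e-13).
miR-182, which shares a cluster with miR-183 and miR-96, known from sensory epithelia, had levels of -17.69, -19.47 and -17.28 at 0 h and -9.41, -9.51 and -9.45 at 60 h. Its 60 h arrays agreed closely, whereas replicate 2 of 0 h was well below the other two. The change was 8.69 ± 0.45 (413-fold, adjusted p = 2.59e-08) and was 8.03 without that replicate. With U6 at a mean Ct of 15.37 at 0 h, these 0 h levels stand for late Ct values near the detection limit of Ct 35. The size of the fold of miR-182 therefore rests on signals close to that limit.
The level of miR-322, which is induced during myogenic differentiation in cell culture, rose from -16.40, -17.75 and -16.86 to -10.78, -11.25 and -11.09. This was a change of 5.96 ± 0.28 with no overlap.
miR-21, a miRNA raised in many proliferating and injured tissues, stood at -13.51, -13.43 and -13.48 at 0 h and at -7.49, -7.65 and -7.50 at 60 h (5.93 ± 0.06, 60.8-fold). Both groups had a narrow spread, and the adjusted p was 2.54e-13.

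The other 6 of the 10 largest increases were miR-142-3p, a miRNA of blood-derived cells, miR-19a, miR-20a and miR-20b of the miR-17-92 group of cell cycle-linked miRNAs, the muscle miRNA miR-133b and miR-221, known to repress p27, an inhibitor of cyclin-dependent kinases.
miR-142-3p had 0 h levels of -19.26, -16.45 and -18.95 and 60 h levels of -12.41, -12.16 and -12.34. Its 0 h arrays were the most scattered of the 10 assays: the change was 5.91 ± 0.59, and 6.80 without replicate 2 of 0 h. The other replicates of 0 h lay near the detection limit of Ct 35, so the size of this change also rests on late Ct values.
For miR-19a the levels were -12.03, -12.01 and -11.78 at 0 h and -6.04, -5.98 and -6.10 at 60 h (5.90 ± 0.07, 59.6-fold). Those of miR-20a were -9.31, -9.25 and -9.37 and -3.87, -3.77 and -3.94 (5.45 ± 0.06), and those of miR-20b -11.27, -10.65 and -10.54 and -5.44, -5.37 and -5.55 (5.37 ± 0.17). In these 3 assays the arrays of a group lay much closer together than the groups did.
miR-133b rose from -12.59, -12.71 and -13.02 to -7.13, -7.23 and -7.13 (5.61 ± 0.11, 48.8-fold), and miR-221 from -13.28, -13.18 and -13.07 to -7.56, -7.75 and -7.65 (5.52 ± 0.09). All 10 kept their increase with every reference RNA tried. In all, 21 assays were at least 10-fold higher at 60 h.

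The decreases were led by miRNAs of the imprinted Dlk1-Dio3 locus on chromosome 12. It accounted for 7 of the 10 largest decreases among assays detected on all 6 arrays.
miR-485* had levels of -8.40, -8.13 and -8.10 at 0 h and -13.83, -13.41 and -13.81 at 60 h (-5.47 ± 0.16, 44.4-fold lower). miR-667 stood at -9.50, -9.38 and -9.36 and -14.81, -14.37 and -14.78 (-5.24 ± 0.13), and miR-127, which lies antisense to the Rtl1 mRNA, at -4.68, -4.73 and -4.74 and -9.87, -9.68 and -9.62 (-5.01 ± 0.07, adjusted p = 1.19e-12). Each group was tight in these assays, and the 60 h arrays were lower without exception.
The 4 others of the locus were miR-411* (-4.83 ± 0.24), miR-495 (-4.68 ± 0.32), miR-434-3p (-4.61 ± 0.05) and miR-337-5p (-4.23 ± 0.18). With card B U6 at a mean Ct of 15.48, the 60 h levels of miR-411* (-17.80, -18.18 and -18.53) stand for late Ct values.
The 3 from elsewhere were miR-489, on its mouse and on its rat assay, and miR-145. miR-145, a miRNA of smooth muscle and other mesenchymal cells, fell from -3.47, -3.34 and -3.40 to -7.65, -7.60 and -7.64 (-4.23 ± 0.06, 18.7-fold lower). These 10 stayed lower with every reference RNA tried. In all, 23 assays were at least 10-fold lower.

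**Figure D1:**
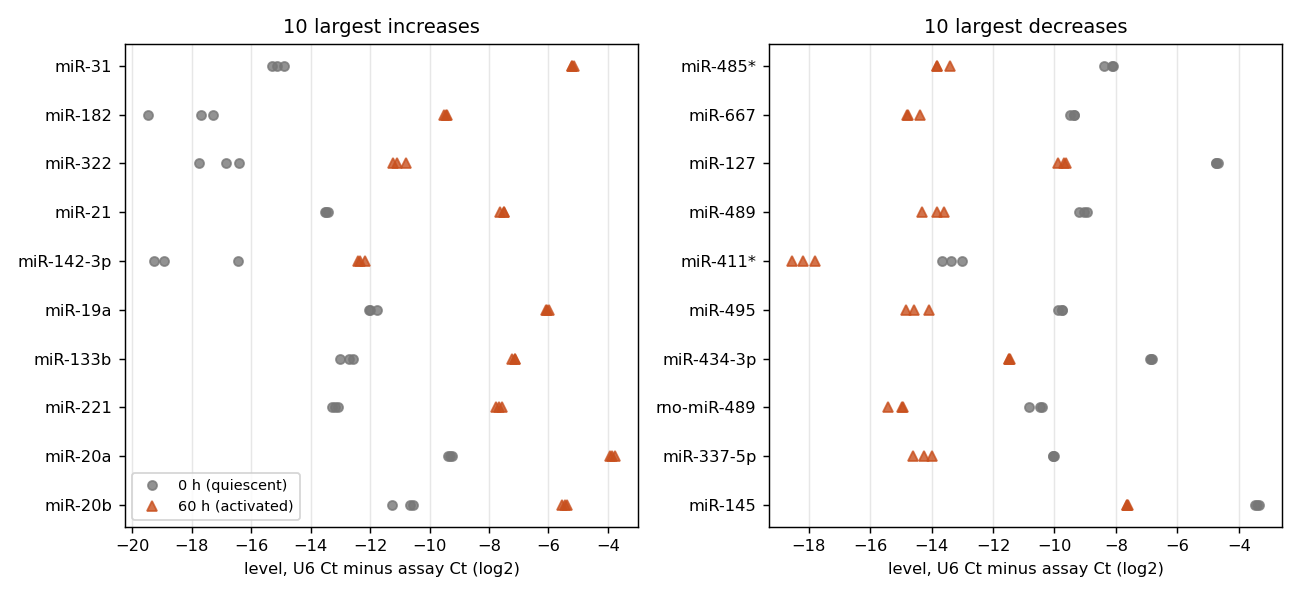
Level of each of the 10 most increased and 10 most decreased assays on each array, as log2 against U6, with 3 grey circles for 0 h and 3 orange triangles for 60 h. The groups lie apart in all 20 assays, and the widest scatter is that of miR-142-3p and miR-182 at 0 h.

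Several assays passed from no signal to a strong one. miR-31*, the other strand of the miR-31 hairpin, had Ct values of 23.4, 23.2 and 23.2 at 60 h, and at 0 h its only Ct was above 35, so that it was at least 3261-fold higher. miR-374 had Ct values of 23.2, 23.2 and 23.2 at 60 h and none at 0 h (at least 3397-fold higher).
Both were thus measured early in the run in all 3 arrays of 60 h. miR-18a, of the miR-17-92 cluster, had Ct values of 23.8, 23.9 and 23.9 at 60 h and a single one of 34.0 at 0 h, against which it was 1102-fold higher.
The ranking set undetected arrays to Ct 35 and so is not the order of the printed folds. The next 5 in it were miR-15b* (at least 277-fold), miR-106b* (12.8-fold against the highest single spot of 0 h), the rat assay of miR-351 (72.1-fold against that spot), miR-20a* (at least 110-fold) and miR-7a (28.1-fold against that spot). Of the 28 assays detected at 60 h alone, 8 had some Ct below 35 at 0 h.

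In the other direction, miR-433 of the Dlk1-Dio3 locus had Ct values of 24.7, 24.6 and 24.6 at 0 h and none at 60 h, so that it was at least 1318-fold lower. miR-543 of the same locus had 27.7, 27.3 and 27.3 at 0 h and a single Ct of 33.4 at 60 h, against which it was 61.5-fold lower.
miR-673-3p (at least 114-fold), the rat assay of miR-136* (at least 106-fold), miR-370 (at least 93.4-fold) and miR-431 (at least 91.8-fold) came from the locus too, and miR-685 (at least 91.3-fold) did not.
miR-696 was undetected by the rule at 60 h but had some spots below Ct 35 there, and it was only 3.07-fold lower than at 0 h when set against the highest of them. Of the 23 assays detected at 0 h alone, 8 had some Ct below 35 at 60 h.

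miRNAs with one seed did not always respond alike. All 6 assays with the seed AAAGUGC were higher at 60 h, between 2.92 for miR-106b and 5.45 for miR-20a, with a median of 5.05. The background of higher assays is the 28.0% given above.
In the wider list of miR-17-92 miRNAs and their paralogs, which are known to promote proliferation, 10 of 10 tested assays among 13 were higher with every reference RNA, with a median of 4.77. The assay of miR-18a joined at 60 h alone.
The same 3 clusters hold members that moved less or otherwise: miR-25, next to miR-93 and miR-106b, changed by 1.34 ± 0.09. miR-363, next to miR-20b and miR-106a, was detected at 0 h alone, with Ct values of 34.4, 32.4 and 33.3 there and a single one of 34.4 at 60 h.
The seed GUGCAAA of miR-19a and miR-19b also rose, by 5.90 and 4.52.

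The seed AGCAGCA gave opposite responses. miR-322 rose by 5.96 and miR-15b by 1.57 ± 0.05, miR-16 changed by 0.19 ± 0.06 and was not called, and miR-497 and miR-195 fell by 1.65 and 2.58. miR-195 and miR-497 are reported to hold muscle stem cells in quiescence by repressing cell cycle genes.
The levels of miR-195 were -4.27, -4.16 and -4.15 at 0 h and -6.78, -6.74 and -6.79 at 60 h, and those of miR-15b -8.69, -8.64 and -8.69 and -7.09, -7.13 and -7.09. Neither assay had overlapping groups.
With snoRNA202, miR-497 was at 0.75 and miR-195 at -0.17, and neither was called. All 5 assays are on card A, where the ratio of miR-15b to miR-195 rose 17.7-fold and that of miR-322 to miR-195 372-fold, whatever the reference. These ratios were chosen after their values were seen and were not tested.
miR-15b and miR-16 come from 1 hairpin cluster in Smc4, and miR-16 has a second copy on chromosome 14, so its assay reads both.

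Other families split too. Of 6 tested let-7 assays, let-7i rose (3.22 ± 0.07), let-7b (-2.27 ± 0.10) and let-7c (-2.28 ± 0.08) fell, and let-7d, let-7e and let-7g were at -0.55, -0.14 and 0.01 and not called. let-7i had levels of -11.06, -10.85 and -10.90 at 0 h and -7.75, -7.65 and -7.75 at 60 h, and let-7b of -4.94, -4.58 and -4.73 and -7.12, -7.01 and -6.92.
let-7 miRNAs are known as brakes on proliferation that build up in differentiated cells. With snoRNA202, 4 of the 6 were higher, but the ratio of let-7i to let-7b rose 45-fold with any reference.
miR-99b rose (1.06 ± 0.12) while miR-99a (-1.69 ± 0.09) and miR-100 (-2.06 ± 0.10) fell, and the ratio of miR-99b to miR-99a rose 6.76-fold. The call of miR-99b was lost without replicate 3 of 0 h (0.96) and with Y1 (0.95), and with snoRNA202 miR-99a and miR-100 turned to 0.71 and 0.34.
miR-125a-5p, from the miR-99b cluster on chromosome 17, was at 0.70 ± 0.06 and not called, and miR-125b-5p, from the miR-99a and miR-100 clusters, fell by 1.64, but was at 0.76 with snoRNA202.

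miR-27a and miR-27b share their seed and most of their length. miR-27a was at 1.00 ± 0.06, just past 2-fold, and lost its call when replicate 1 or 3 of 0 h or replicate 3 of 60 h was left out (0.98 to 0.99), with the median of the spots (0.99) and with Y1 (0.89). miR-27b, a reported repressor of Pax3, fell (-1.13 ± 0.10), but rose by 1.28 with snoRNA202. It was not called with snoRNA135 (-0.79), the mean of all assays (-0.97), U87 (-0.073) or quantile normalization (-0.74). The ratio of the 2 rose 4.38-fold.
miR-221 and miR-222, from 1 cluster on the X chromosome, both rose, but by 5.52 ± 0.09 and 1.78 ± 0.08, so that their ratio rose 13.4-fold. miR-222 had levels of -5.97, -5.94 and -5.99 at 0 h and -4.06, -4.29 and -4.22 at 60 h.
miR-29b (3.06 ± 0.36) and miR-29a (1.43 ± 0.08), known repressors of collagen mRNAs, rose, and miR-29c was at 0.53 ± 0.10.
The miR-30 list had 4 of 5 assays lower (median -1.36), the miR-26 list 2 of 2 (median -2.05), the miR-181 list 2 of 2 (median -2.13) and the miR-10 list 2 of 2 (median -3.74). Of these 4, only the miR-10 list kept a negative median with snoRNA202 (-1.34). The others were then at 1.05, 0.35 and 0.28. In the miR-10 list, miR-10b was tested on 2 detected replicates of 60 h.

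miR-7b rose (5.40 ± 0.44), and miR-7a, with the same seed, was detected at 60 h alone. miR-449a (5.71 ± 0.55) and miR-449c stood in the same relation, and each of miR-7b and miR-449a was tested on 2 detected replicates of 0 h.
In the cluster of miR-182, miR-183 had Ct values of 30, 30 and 29.9 at 60 h and none at 0 h (at least 32.8-fold higher), and miR-96 was undetected on all 6 arrays.
In the list of the cluster of miR-322 and miR-503, miR-542-3p rose (2.15 ± 0.36), and 3 further assays were detected at 60 h alone. Among them was miR-503, known to repress the cell cycle phosphatase Cdc25a, at least 6.65-fold higher.

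**Figure D2:**
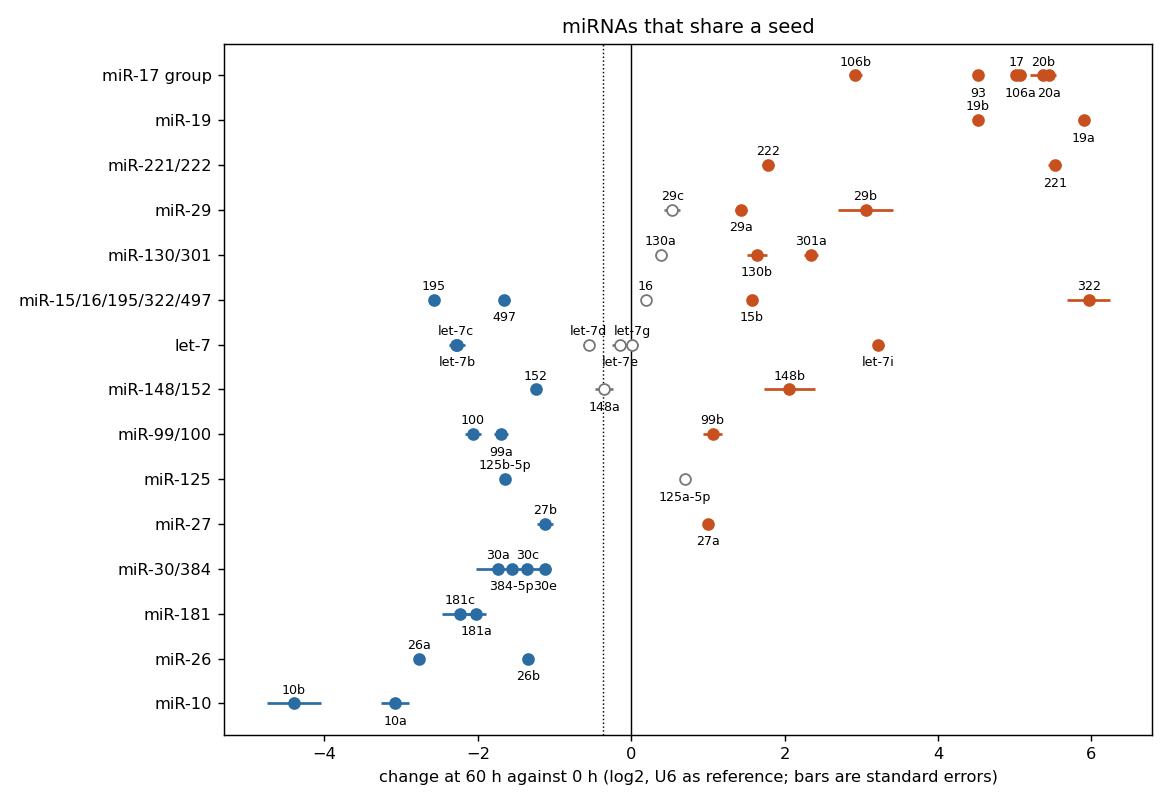
Log2 change at 60 h against 0 h of each tested assay, grouped by shared seed. Orange is higher, blue lower and open not called. Bars are standard errors (3 arrays per group, or 2 where a replicate was undetected). The dotted line is the median of all tested assays at -0.37. The group of miR-17 lies wholly to the right of 0, whereas the groups of miR-15b and let-7 lie on both sides; with snoRNA202 as reference all points move right by 2.40 on card A and 2.55 on card B.

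The Dlk1-Dio3 locus encodes a large set of miRNAs expressed from the maternal chromosome and is known as a feature of quiescent stem cells in several tissues. The panel holds 73 assays for it, star strands included: 34 were undetected on all 6 arrays, 25 were tested and 12 were detected at 0 h alone. These 12 are among the 23 assays in all that were detected at 0 h alone.
Of the 25 tested assays, 22 were lower and 3 were not called, against the background of 36.4% lower. The median change was -3.18, and that of the other 225 tested assays was -0.09, with 69 lower.
The 3 assays without a call were miR-376b (-0.22 ± 0.23), miR-369-5p (-1.55 ± 0.79) and the rat assay of miR-381 (-0.80 ± 0.14).
The list was known to fall from earlier results of these data, and its counts are a description.

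The size of the decrease varied along the locus. In the group near Rtl1 and Meg3, 7 of 7 tested assays of 18 were lower (median -4.12) and 4 were detected at 0 h alone. The 7 include both strands of miR-434 and of miR-337, miR-673-5p (-4.12 ± 0.33) and miR-136 (-3.14 ± 0.21).
In the distal group from miR-379 to miR-410, 12 of 15 tested assays of 39 were lower (median -3.09) and 4 were detected at 0 h alone.
miR-379, the first of that group, had levels of -7.23, -7.30 and -7.29 at 0 h and -10.46, -10.81 and -10.48 at 60 h (-3.31 ± 0.09). miR-409-3p stood at -7.62, -7.55 and -7.49 and -10.64, -10.74 and -10.71 (-3.14 ± 0.07), and miR-494 at -11.42, -11.42 and -11.72 and -12.61, -13.07 and -12.62 (-1.25 ± 0.19). The first 2 fell by nearly the same amount and miR-494 by much less. miR-494 was not called with snoRNA135 (-0.91), U87 (-0.19) or quantile normalization (-0.64).
miR-382, detected in only part of the arrays, had the lowest fitted change of the locus (-6.48 ± 0.24).
The locus remained lower on balance with snoRNA202 but less so: the median was -1.58 in the near group, with 4 of 7 assays lower, and -0.69 in the distal group, with 3 lower and 3 higher.

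**Figure D3:**
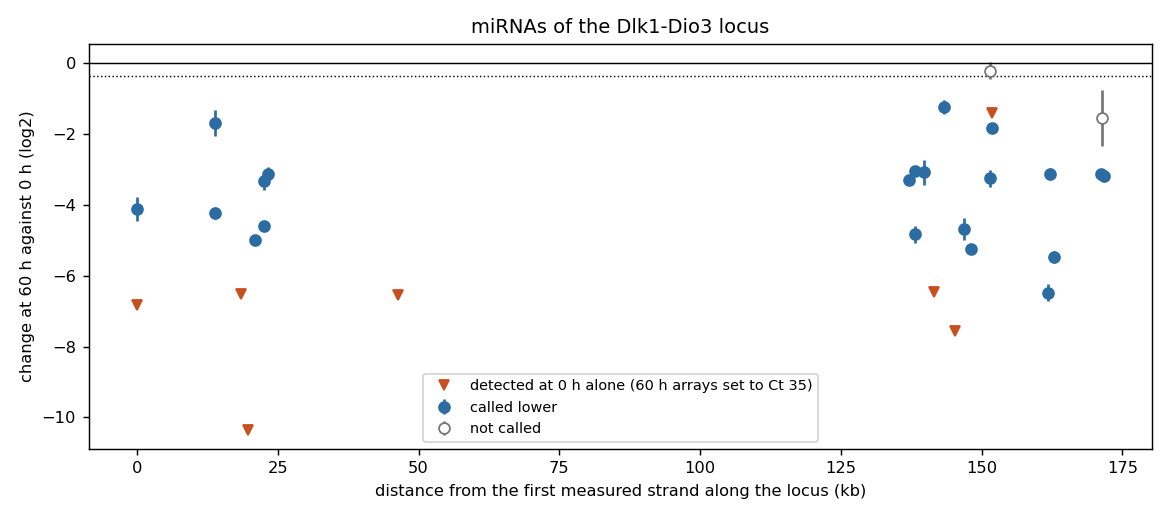
Log2 change at 60 h against 0 h of the assays of the Dlk1-Dio3 locus, by distance in kb from the first matched miRNA. Bars are standard errors (3 arrays per group, or 2 where a replicate was undetected). Triangles are assays detected at 0 h alone, drawn with the undetected 60 h arrays at Ct 35. The dotted line is the median of all tested assays. All tested points lie below 0 with U6; with snoRNA202 as reference the points move up by 2.40 or 2.55 and some pass 0.

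miR-489 and miR-653 lie within the span of Calcr, the gene of the calcitonin receptor, a surface marker of quiescent satellite cells. The published study of these samples was about miR-489, so its locus is no independent evidence.
miR-489 had levels of -9.19, -9.05 and -8.93 at 0 h and -13.82, -13.60 and -14.30 at 60 h on the mouse assay (-4.85 ± 0.17) and of -10.81, -10.41 and -10.46 and -15.42, -14.94 and -14.96 on the rat assay (-4.55 ± 0.22). The 2 assays are on different cards and gave like decreases.
miR-653 fell from -14.66, -14.10 and -13.87 to -17.62, -18.35 and -18.39 (-3.91 ± 0.27). With U6 at a mean Ct of 15.48 at 60 h on its card, its 60 h levels stand for late Ct values. All 3 assays of the locus were lower with each reference RNA, with a median of -4.55 with U6.

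The list of miRNAs enriched in differentiating or mature striated muscle holds 10 assays. Of these, 6 were tested and 6 were higher (median 2.12), and miR-208, miR-208b, miR-486 and miR-499 were undetected on all 6 arrays.
miR-206 had levels of -4.06, -3.80 and -3.71 at 0 h and -1.83, -1.80 and -1.81 at 60 h (2.05 ± 0.12, adjusted p = 2.12e-08). miR-133a stood at -10.17, -10.07 and -10.21 and -7.88, -8.11 and -7.89 (2.19 ± 0.07), and miR-1 at -15.17, -15.09 and -15.99 and -14.00, -13.82 and -13.33 on the mouse assay (1.70 ± 0.24) and -12.98, -12.92 and -12.78 and -10.46, -10.51 and -10.30 on the rat assay (2.47 ± 0.08). In each of these assays the 60 h arrays lay above the 0 h arrays.
miR-133b lies next to miR-206 on chromosome 1 and rose more, by 5.61 ± 0.11. miR-378 was at 1.03 ± 0.14, and its call was lost without replicate 1 of 0 h (0.88) or replicate 2 of 60 h, and with Y1 or the mean of all assays as reference. The other increases kept their direction with each reference, but with quantile normalization within a card the change of miR-206 was -0.01.

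miRNAs that mark other cell types changed in both directions. Of 7 assays enriched in white blood cells, 6 were tested: miR-142-3p, miR-223 (4.05 ± 0.07), miR-155 (1.92 ± 0.07) and miR-146b (1.18 ± 0.05) were higher, miR-146a (0.39 ± 0.09) was not called, and miR-150, a miRNA of mature lymphocytes, was lower (-3.67 ± 0.08).
miR-223, a myeloid miRNA, had levels of -12.54, -12.61 and -12.72 at 0 h and -8.51, -8.60 and -8.59 at 60 h, while miR-150 had -5.54, -5.51 and -5.55 and -9.07, -9.25 and -9.29. The 2 thus moved apart, and both kept their direction with snoRNA202.
miR-451, of red blood cells, was detected at 60 h alone with late Ct values of 32.4, 34.2 and 31.5.
The endothelial assays of miR-126 were lower (-1.78 ± 0.05 for miR-126-3p and -1.76 ± 0.06 for miR-126-5p), but with snoRNA202 their median was 0.64 and neither was called.
Among miRNAs of mesenchymal and smooth muscle cells, miR-145, miR-143 (-2.09 ± 0.08) and miR-214 (-1.48 ± 0.06) were lower and miR-199a-3p (0.19 ± 0.05) was not called. With snoRNA202 miR-143 turned to 0.32 and miR-214 to 0.93, and miR-145 stayed lower.

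Of 7 epithelial assays, 6 were undetected on all 6 arrays, and miR-203 was lower (-1.68 ± 0.08, which turned to 0.72 with snoRNA202). miR-122 of liver was undetected.
Of 6 neural assays, miR-128a (0.10) and miR-138 (0.50) were tested and not called. Of 15 assays of pluripotent cells, miR-302a was detected at 0 h alone, with Ct values of 33.9, 33.2 and 32.6, and 12 were undetected on all 6 arrays.
Whether the miRNAs of other cell types and those of the muscle lineage came from the same cells was not tested.

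The 2 strands of a hairpin are cut from 1 precursor, and 1 of them is usually kept and the other degraded. Of 143 strand pairs with assays for both strands, 38 had both detected in at least 2 replicates of both groups. The change of the ratio was tested with limma, and 25 of the 38 pairs were called (65.8%). In 14 of the 38, both assays are on 1 card and the reference RNA cancels. In the others no array holds both strands, so the card A and card B arrays of the same title were paired, each against its own U6.
The largest shift was that of miR-322. Its log2 ratio of miR-322 to miR-322* was -1.28, -1.63 and -1.97 at 0 h and 3.92, 4.12 and 3.49 at 60 h, a change of 5.47 ± 0.23 (adjusted p = 3.59e-09). Only the change of such a ratio can be read, not its sign, because assays can differ in efficiency. miR-322 rose by 5.96, while miR-322* was at 0.50 ± 0.32 and not called.
The same form was seen in miR-93, whose ratio to miR-93* went from -1.95, -2.21 and -2.30 to 2.03, 1.75 and 1.89 (4.04 ± 0.15). miR-21 rose more than miR-21* by 4.01 ± 0.33, miR-467a more than miR-467a* by 4.30 ± 0.41, and miR-29b more than miR-29b* by 3.01 ± 0.32. The ratio of miR-21 to miR-21* rests on 2 replicates of 0 h. The panel has separate rat assays for miR-29b-1* and miR-29b-2*, so the ratio of miR-29b need not be that of the strands of 1 hairpin.

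In other hairpins the star strand gained. For miR-455 the ratio to miR-455* went from 3.21, 3.50 and 1.34 to -1.19, -1.39 and -1.74, a change of -4.12 ± 0.47, and of -4.80 without replicate 3 of 0 h. miR-455 itself was at 0.13 ± 0.15 while miR-455* rose by 4.25 ± 0.43.
The log2 ratio of miR-16 to miR-16* changed by -2.93 ± 0.31, that of miR-214 to miR-214* by -2.12 ± 0.12 and that of miR-27b to miR-27b* by -1.72 ± 0.26. For miR-16 the ratio rests on 2 replicates of 0 h. miR-16 comes from 2 hairpins, as given above, so its ratio need not be that of the strands of 1 hairpin, which was not tested. The ratios of miR-99b and miR-29a to their star strands changed by -1.61 ± 0.21 and -1.94 ± 0.73. The last pair had an adjusted p of 0.0296 and lost its call without replicate 1 of 0 h (-1.92), replicate 2 of 0 h (-0.98), replicate 1 of 60 h (-1.94) or replicate 3 of 60 h (-1.84). Without replicate 3 of 0 h it was -2.93 and kept it. It was also lost in the fit of 0 h and 60 h alone (adjusted p = 0.088 with limma) and after quantile normalization.
Star strands also gained in miR-186 (-1.74 ± 0.26), miR-676 (-1.52 ± 0.17) and miR-26b (-1.03 ± 0.17, whose call was lost without replicate 2 of 0 h, at -0.96, or replicate 3 of 60 h, at -0.92, and with Y1, at -0.88, the mean of all assays, at -0.81, and quantile normalization, at -0.019).
The named strand gained in miR-28 (1.79 ± 0.29) and miR-872 (1.26 ± 0.18).

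Pairs on card A need no reference RNA. The ratio of miR-125b-3p to miR-125b-5p rose from -11.74, -12.62 and -12.68 to -8.97, -8.97 and -9.56 (3.18 ± 0.37, adjusted p = 1.53e-05). miR-125b-5p comes from 2 hairpins, however, and both assays of miR-125b*, on card B, were lower (-1.49 ± 0.31 for mouse and -1.19 ± 0.17 for rat), while miR-125b-5p itself was at -1.64 ± 0.04. Those 2 assays were not tested against it, and with snoRNA202 they turned to 1.06 and 1.35.
The ratio of miR-125a-3p to miR-125a-5p fell (-1.70 ± 0.19).
The 3p strand lost against the 5p strand in miR-340 (-1.91 ± 0.26), miR-331 (-1.80 ± 0.34) and miR-324 (-1.78 ± 0.15).
Within the Dlk1-Dio3 locus, where nearly all assays fell, strands still differed. On card A, miR-337-3p fell less than miR-337-5p by 2.53 ± 0.42, and the log2 ratio of miR-434-3p to miR-434-5p changed by -1.27 ± 0.23. miR-376b fell less than miR-376b* by 3.04 ± 0.18, and miR-411 less than miR-411* by 1.78 ± 0.24. These 2 star strands are on card B, so here each strand rests on the U6 of its own card.
In contrast, the ratio of miR-126-3p to miR-126-5p was 2.43, 2.35 and 2.18 at 0 h and 2.36, 2.32 and 2.24 at 60 h, a change of -0.02 ± 0.13 (adjusted p = 0.887). Its 95% interval lies between -0.31 and 0.27, so a shift of 2-fold in either direction is outside it.

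**Figure D4:**
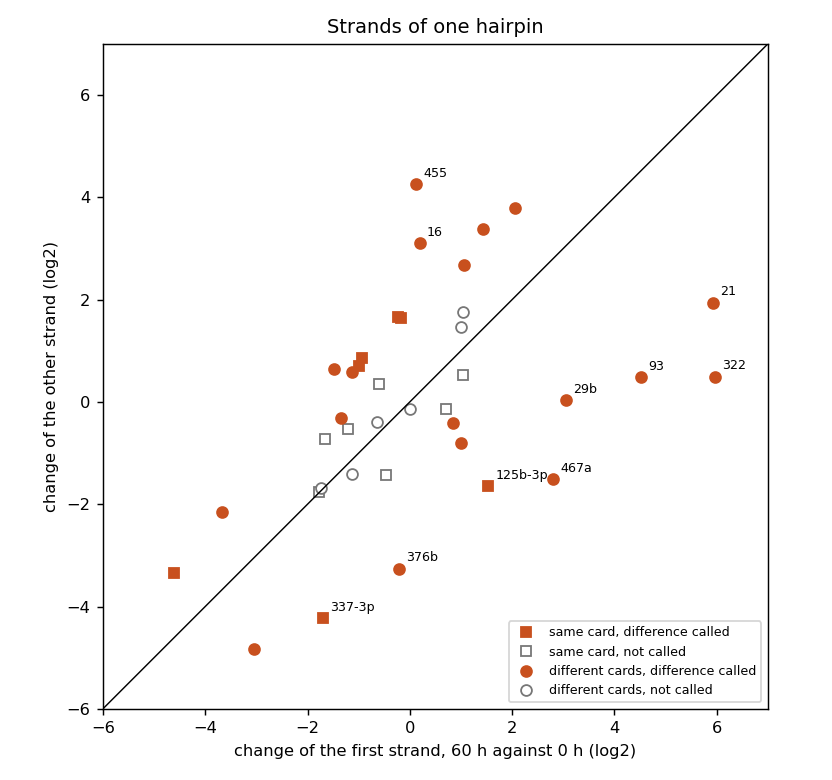
Log2 change at 60 h against 0 h of the 2 strands of 38 strand pairs, the first-named strand on the x axis and the other on the y axis. Filled points mark pairs whose difference was called, and squares are pairs on 1 card. Points on the line changed equally: miR-322, miR-93 and miR-21 lie far below it, with the first strand up by 4.52 to 5.96, and miR-455 and miR-16 far above it; with another reference pairs of 1 card slide along the line.

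The 60 h arrays were last set against the other activated groups in the same fit. Comparisons of 36 h, 60 h and 72 h with 0 h share the 0 h arrays, so the values are given side by side.
Against 36 h, 153 of 279 tested assays were called (54.8%), of which 15 were higher at 60 h (5.38%) and 138 lower (49.5%). Against 72 h, 97 of 265 were called (36.6%), with 95 higher (35.8%) and 2 lower (0.755%).
The median assay changed by -1.27 on card A and -0.74 on card B from 36 h to 60 h, and 60 h was higher than 72 h by 0.87 and 0.59. These splits and medians hold for U6. On card A, U6 had a Ct of 14.855, 14.874 and 14.92 at 36 h and 15.41, 15.369 and 15.398 at 60 h. snoRNA202 had 15.029, 15.011 and 15.021 and then 17.028, 17.03 and 17.113, so with it the changes from 36 h to 60 h move upward. With snoRNA202, 148 of the 279 assays were called against 36 h, and their split was not counted. The count against 72 h fell to 46 with snoRNA202, 59 with snoRNA135, 60 with U87 and 42 with the mean of all assays.

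Among the 15 assays higher than at 36 h, miR-182 (2.75 ± 0.45), miR-31 (2.65 ± 0.09) and miR-31* (2.62 ± 0.14) led, and miR-133b (1.65 ± 0.11) and miR-206 (1.56 ± 0.12) were among them.
miR-31 had mean levels of -15.12, -7.83, -5.18 and -6.10 in the order of the 4 time points, so that it was highest at 60 h, but the difference from 72 h (0.92 ± 0.09) was under 2-fold.
miR-183* was detected in 3 of 3 replicates at 60 h and in none at 0 h, 36 h or 72 h, with Ct values of 28.3, 28.4 and 28 at 60 h.
2 muscle miRNAs had their highest mean at 72 h: miR-206 was at -3.86, -3.37, -1.81 and -1.03 in the 4 groups in order of time, and miR-133b at -12.77, -8.81, -7.16 and -6.66. The 2 assays lower at 60 h than at 72 h were miR-133a (-1.01 ± 0.07) and miR-503 (-1.18 ± 0.21).

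Of the white blood cell list, miR-223 (-3.59 ± 0.07), miR-142-3p (-2.63 ± 0.59) and miR-150 (-4.08 ± 0.08) were lower at 60 h than at 36 h. The background of lower assays in this comparison is 49.5%. Changes of miR-155, miR-146a and miR-146b from 36 h are not given here. With snoRNA202 as reference, miR-155 was higher at 60 h than at 0 h, 36 h and 72 h. In order of time, the mean level of miR-223 was -12.62, -4.98, -8.57 and -8.81.
miR-451 was lower at 60 h than at 36 h as well (-3.67 ± 0.75). The part of other cell types in the differences between 36 h and 60 h was not tested.
miR-127 of the Dlk1-Dio3 locus and miR-489 of the Calcr locus went down further after 36 h. miR-127 was at -4.72, -6.67, -9.72 and -9.89, with -3.05 ± 0.07 from 36 h to 60 h, and miR-489 at -9.05, -10.46, -13.91 and -15.72 (-3.45 ± 0.17). A count over the Dlk1-Dio3 locus is not given for this step. With snoRNA202, its member miR-376b was higher at 60 h than at 0 h, 36 h and 72 h. For miR-489 the 60 h level was still above that at 72 h (1.81 ± 0.17, adjusted p = 4.77e-06), and for miR-127 the difference was 0.17 ± 0.07 and not called.

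Of 238 assays tested in all 3 comparisons, 1 was higher at 60 h than at 0 h, 36 h and 72 h by the call rule, miR-19a, with mean levels of -11.94, -7.07, -6.04 and -7.82. Its excess over 36 h was 1.03 ± 0.07, just past 2-fold, and the call was lost without replicate 2 of 60 h, with the mean of all assays as reference and after quantile normalization. With these last 2 settings miR-221 was higher than in all 3 groups.
The same limma fit called 0 assays lower at 60 h than in all 3 other groups. At an unadjusted p below 0.05 in each comparison and with no minimum fold, 6 were lower and 21 higher.

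**Figure D5:**
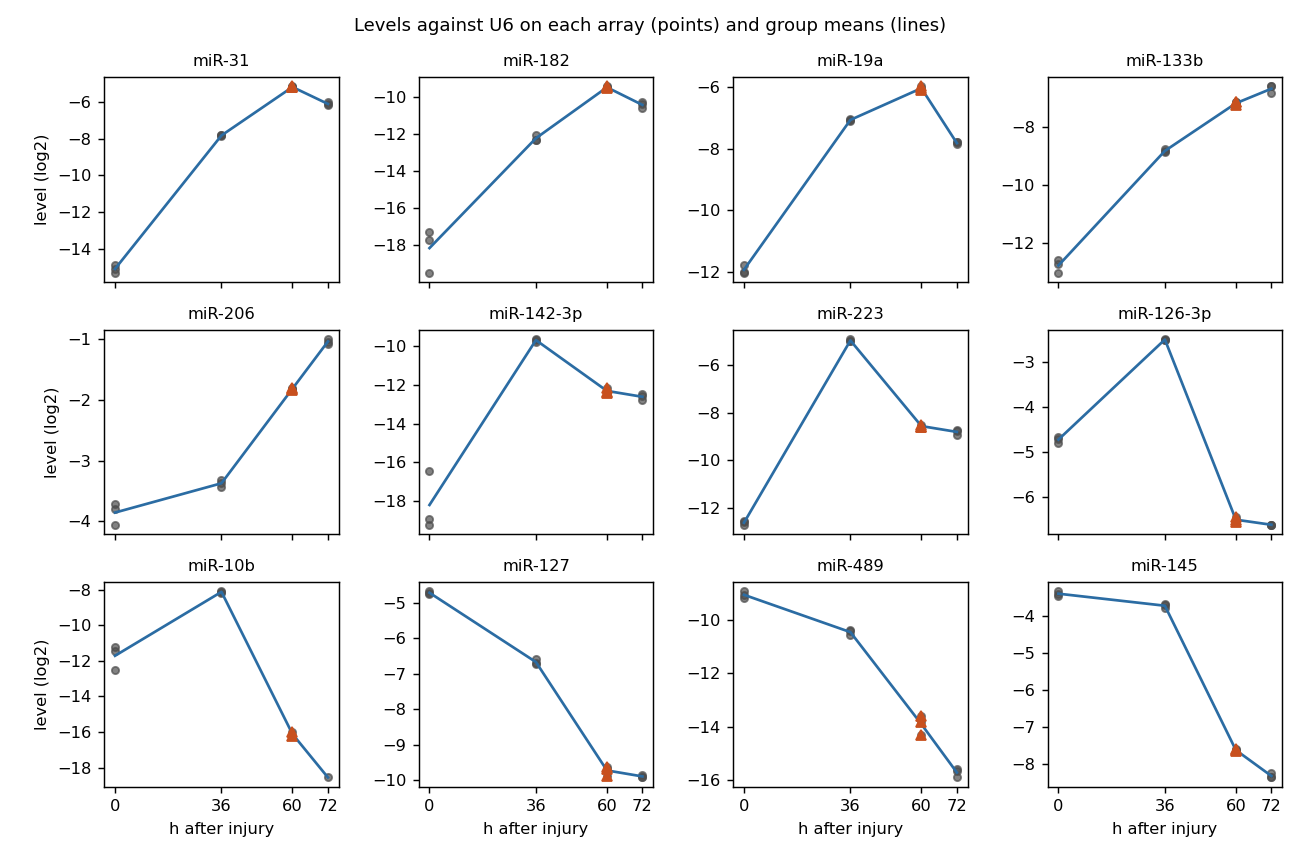
Level of 12 miRNAs on each array at 0, 36, 60 and 72 h after injury, as log2 against U6, with a line through the 4 group means and the 60 h arrays as triangles. miR-31, miR-182 and miR-19a have their highest mean at 60 h, miR-206 and miR-133b at 72 h, and miR-223, miR-142-3p, miR-10b and miR-126-3p at 36 h.

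The authors' deposited table gives its own fold changes, and here they were averaged over the spots of an assay. This mean was more than 1.5 times above or below the fold of the fit for 14 of the 250 tested assays. Of these 14, 13 were among the 20 tested assays with an undetected replicate.
In that table a Ct of 40 stands where none was determined. For miR-720 the mean from the authors' deposited table was 755000-fold. The Ct values were 19.6, 19.5 and 19.5 at 0 h and 17.9, 17.8 and 17.8 at 60 h, and the fit gave 1.67 ± 0.16. 1 of the 0 h replicates has a spot with no Ct.
For miR-694 the mean from the authors' deposited table was 9.21-fold higher, and the fit here gave -2.56 ± 0.53, which is lower. The means from the authors' deposited table were 77050-fold for miR-31* and 109200-fold for miR-374, where the bounds here are at least 3261-fold and at least 3397-fold. miR-720 and miR-694 were chosen after their values were seen.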

How the data were processed

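MicroRNAs were measured by real-time PCR on TaqMan rodent cards, and the 12 arrays of the 0 h and 60 h groups were used, with the 12 arrays of 36 h and 72 h in the same fit. Per the file headers, each deposited array file holds a threshold cycle per spot, another unit than a count or an intensity, in the form of an inverse log2 value. For its software and threshold: not given in the sources used here. Beside these, the authors deposited a table per card with Ct, dCt and a linear fold change against day 0, from dCt, in which 40 stands where no Ct was determined. These fold ratios were taken from the authors' table, averaged over the spots of an assay and used only where that is said. 84 per-sample columns of the deposited tables were not used, among them those of day 3.5, where the labels give 72 h.

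The level was the mean Ct of the 4 U6 spots of an array minus the mean Ct of the assay's spots. Card A has 1 spot per assay, and 150 of 209 assays of card B have 2. Detected meant that all spots were below Ct 35, and undetected values were left out. limma 3.58.1 in R 4.3.3 was fitted per card over its 12 arrays. An assay needed 2 detected replicates in both groups, adjustment was by Benjamini-Hochberg over both cards together, and a call needed an adjusted p below 0.05 and at least 2-fold. Errors after ± are standard errors of log2 changes (n = 3 arrays per group, or 2 where a replicate was undetected). The same model was fitted to the difference of 2 strands on each array. For strands on different cards, the card A array and the card B array of the same title were paired, each with its own U6. The fit was tested on simulated data. Assays with 3 detected replicates in one group and 0 or 1 in the other were counted as present in the first alone. Its fold is a bound with the other group at Ct 35, or, where that group had a spot below 35, is set against its highest spot, a way chosen after seeing the data.

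The arrays, the lists and the rules were chosen with earlier results of these data known. Named are the 10 largest increases and decreases among called assays detected on all 6 arrays without overlap, the first 8 in either direction of those present in 1 group alone, ranked with undetected arrays at Ct 35 rather than by the printed folds, assays of the lists, strand pairs that were called and assays that differed from all 3 other groups. Members of printed seed groups, examples of deposited folds and strand pairs that were not called were added after their values were seen. Alternatives were other reference RNAs (snoRNA202, snoRNA135, Y1, the mean of all detected assays and, added after seeing the data, U87), other detection limits, undetected values at Ct 35, a fit of 2 groups, a replicate block, the median of spots, no minimum fold, 3 detected replicates, quantile normalization and leaving out each replicate.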

Additional observations from a re-analysis of the deposited data

Results flagged for a closer look

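For 11 assays the change from 0 h had opposite directions in 2 groups that share the 0 h arrays: they were called higher at 36 h and called lower at 60 h, and the difference between 60 h and 36 h was itself called with limma. How many assays were tested in each of these comparisons together was not counted, so the 11 have no share beside them. Among all assays tested, 49.5% were lower at 60 h than at 36 h and 36.4% lower than at 0 h. From 36 h to 60 h, miR-10b, which lies between Hox genes, changed by -7.99 on the log2 scale, with 2 detected replicates at 60 h. The endothelial miR-126-3p changed by -4.00 and miR-126-5p by -3.71. The mesenchymal miR-143 changed by -4.66 and miR-214 by -2.88. The others were miR-152 (-3.002), miR-125b* on the mouse assay (-2.81) and the rat assay (-2.36), miR-652 (-2.43), miR-339-5p (-2.34) and miR-30e (-2.28). The opposite directions depended on the reference RNA. With snoRNA202 they remained for 1 of the 11, miR-10b, with snoRNA135 for 6, with Y1 for 5 and with the mean of all detected assays for 2, miR-10b and miR-143. The differences between 60 h and 36 h in markers of white blood cells, endothelium and mesenchyme stand beside each other here, and their part in each other was not tested.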

How the results depend on the processing

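With snoRNA202 in place of U6, 179 assays were higher and 20 lower at 60 h, and with U87 111 and 51. The median change was 2.08 with snoRNA202, 0.001 with snoRNA135, -0.56 with Y1, 0.67 with U87, -0.044 after quantile normalization and between -0.50 and -0.27 with 1 replicate left out. The calls against 72 h numbered 46 with snoRNA202, 59 with snoRNA135, 42 with the global mean, 60 with U87, 44 after quantile normalization and 200 with no minimum fold. Called strand pairs numbered 14 of 23 at a limit of Ct 32 and 39 of 54 with undetected values at Ct 35. Assays higher at 60 h than in all 3 other groups numbered 13 with snoRNA202, 10 with Y1, 4 with the global mean, 11 with U87, 8 with undetected values at Ct 35, 21 with no minimum fold, and 0 to 1 with 1 replicate left out. Those lower than in all 3 numbered 6 with the global mean, 2 with undetected values at Ct 35, 6 with no minimum fold and 11 after quantile normalization.

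Of 131 named changes and strand differences, 24 turned their sign with snoRNA202 where a call was made with either reference: let-7b (0.13), let-7c (0.12), let-7d (1.85), let-7e (2.26), miR-100 (0.34), miR-125a-3p (1.40), miR-125b-5p (0.76), miR-125b* (1.06 on the mouse assay and 1.35 on the rat assay), miR-126-3p (0.63), miR-126-5p (0.64), miR-143 (0.32), miR-203 (0.72), miR-214 (0.93), miR-26b (1.06), miR-27b (1.28), miR-337-3p (0.70), miR-376b (2.18), miR-467a* (1.04), miR-494 (1.16), miR-497 (0.75), miR-694 (0.11), miR-99a (0.71) and the rat assay of miR-381 (1.60). With U87 miR-125a-3p turned to 0.055, and after quantile normalization miR-206 turned to -0.008. Of the 131, 14 lost their call with U87, 11 after quantile normalization and 4 each with snoRNA135, Y1 and the global mean.

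Leaving out 1 replicate gave 150 to 158 called assays. The replicate number as a block gave 162 called assays, 70 higher and 92 lower, and 26 strand pairs, and changed no call of a named assay or pair. The correlation of the deviations of same-numbered arrays of 0 h and 60 h over assays was 0.35, 0.18 and -0.025 on card A and 0.49, 0.49 and 0.32 on card B. On card B each array correlated best with its own number, and differently numbered arrays were at -0.40 to -0.02. On card A replicate 3 did not follow this, and the labels name nothing that a number shares, so the pairing is a hint from card B and not part of the design. Ct values near 35 limit the assays detected in 1 group and the size of the folds of assays such as miR-182, miR-142-3p, miR-411* and miR-653. The change in the ratio of miR-411 to miR-411* has the same limit. The cause of the differences between reference RNAs was not tested.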
